A study of Homo sapiens with 3 samples.

Results

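The small ribosomal subunit proteins are proteins of the 40S subunit, and mRNAs of 32 of their genes were followed here across 3 cultures of a human kidney-derived line. The set was taken by identifier, as 34 RefSeq transcripts of 32 genes among the 25443 transcripts with a value in any sample. It holds the cytosolic RPS genes together with RPSA and FAU, and that rule uses no measured value, although the set was picked for description with results of these data known. RPS14 and RPS24 entered with 2 transcripts each, and each gene was counted once, by the transcript with the higher mean. The cells were HEK293, a line from human embryonic kidney that the study's methods call HEK293T, a derivative carrying a viral T antigen. One culture received 1 µM BDE209 (BDE-209, the fully brominated diphenyl ether flame retardant) together with 1 mM DMSO, its solvent. Another received 1 mM DMSO alone, and the control was kept in medium with neither agent. All were kept for 48 h. A condition was represented by a single sample (n = 1), so the differences below lack a replicate check and carry no p-value. Levels are RPKM, that is reads scaled by transcript length and by the mapped reads of the library.

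The 40S subunit binds mRNA and initiator tRNA and reads the codons, while the large subunit forms peptide bonds. One copy of each small-subunit protein is built around the 18S rRNA, so the proteins are needed in equal number. Their mRNAs are among the most abundant of dividing cells. Most start with a C followed by a run of pyrimidines, the 5′ terminal oligopyrimidine (TOP) element, through which mTOR signalling controls their translation together rather than gene by gene. Ribosomal protein genes also have many processed pseudogenes, which are intronless copies of the mRNA elsewhere in the genome.

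Sequence at the annotated start of transcription was read from RefSeq promoters (build GRCh38.p14), which held 28 starts of 25 of the 32 genes. A start was counted as pyrimidine-rich where its first base was C and each of the next 4 was C or T, read on the gene's strand only. Of the 25 genes, 19 had such a start, with runs of 6 to 14 bases. By promoter, the share was 67.9% (19 of 28), against 56.0% of 50 large-subunit promoters and 4.07% of all 35116 promoters. RPS4X, RPS7, RPS15, RPS26, RPS28 and RPS29 had no such run at the annotated base. Because a start annotated a few bases away hides a run, no match says only that the letters are not at that base. Within 10 bases of the start, 92.9% of the small-subunit promoters held a run of at least 5 beginning with C. The share was 78.0% for large-subunit promoters and 33.5% for all promoters. The sequences below show what the family shares at its starts, for members whose levels or spread are described further on. Each holds 15 bases before the start and 15 from it, and capitals mark the run that begins at the first transcribed base. RPS29, whose start had the shortest nearby run of these promoters, is shown as the contrast. Whether that annotated start belongs to the RPS29 transcript counted was not checked. RPS27A also has annotated starts without a run at their first base, which are not shown. The windows are chr9:19380222-19380251 (minus strand) for RPS6, chr11:75399503-75399532 (plus) for RPS3, chr11:65122120-65122149 (minus) for FAU, chr5:150449725-150449754 (minus) for RPS14, chr10:78033848-78033877 (plus) for RPS24, chr2:55232673-55232702 (plus) for RPS27A and chr14:49598696-49598725 (minus) for RPS29.
RPS6: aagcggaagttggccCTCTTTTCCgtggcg
RPS3: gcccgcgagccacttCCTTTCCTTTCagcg
FAU: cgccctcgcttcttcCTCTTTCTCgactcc
RPS14: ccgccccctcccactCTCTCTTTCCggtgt
RPS24: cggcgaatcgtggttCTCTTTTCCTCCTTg
RPS27A: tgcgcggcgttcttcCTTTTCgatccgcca
RPS29: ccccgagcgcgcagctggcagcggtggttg

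The 3 files listed 23089 to 23200 transcripts each. Low RPKM values rise in whole steps of 1 read, and the steps gave a read total of 4676793 behind the BDE-209 values, 4782044 for DMSO and 4843624 for the control. Each total is lower than the uniquely mapped reads the study reports for that sample. They also place BDE-209 below DMSO, where the study has it slightly above. Why the totals differ was not tested. From these totals, all 34 transcripts gave whole reads in every sample at 1 transcript length, with lengths of 302 to 3325 bases over the 32 genes. Intervals below are 95% Clopper-Pearson intervals of those reads. They cover counting error in the 2 libraries compared, not the spread between cultures. Of the markers of the line, VIM stood at 261 to 299 RPKM, NEFM at 49.8 to 54.1 and NEFL at 24.4 to 27.9. LHX1 was at 0.914 to 1.43 and PAX2 was listed in no sample, and neither were the differentiated kidney markers UMOD, AQP2 and SLC12A1.

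The 32 genes together made up 6.65% of the summed RPKM with BDE-209, 6.71% with DMSO and 6.59% in the control. Their median level was 737, 737 and 756 RPKM in the same order, against 10.7, 10.8 and 10.6 over the 15573 transcripts with a mean of at least 1 RPKM. The 47 large-subunit genes held 9.22%, 9.34% and 9.18% of the summed RPKM, with medians of 1062, 1116 and 1109. Thus a typical small-subunit mRNA stood at 0.694, 0.660 and 0.682 of the typical large-subunit mRNA. Large-subunit genes were counted by the highest of all their listed transcripts, small-subunit genes by member transcripts only. How much of each large-subunit mRNA can give uniquely mapped reads was not computed. All these levels are per length and without an error between cultures. As RNA came from whole cultures, fewer expressing cells and less RNA per cell cannot be told apart.

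Levels within the set were far from equal. RPS2 (uS5), a protein at the mRNA entry channel, was the most abundant, with 4731 RPKM with BDE-209, 4972 with DMSO and 4793 in the control. RPS6 (eS6), the classical substrate of S6 kinase, stood at 2601, 2676 and 2600. RPS4X (eS4), encoded on the X chromosome, stood at 2497, 2509 and 2524 RPKM. RPS27 (eS27), a zinc-binding protein of the platform, stood at 1791, 1861 and 1808. RPS2 alone held 13.6% of the RPKM of the whole set in the control. The middle of the set was narrower, with quartiles of 457 and 1499 RPKM over the 32 genes in the control.

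The lower end of the order held 5 genes under 230 RPKM in every sample. RPS27A (eS31), made as a fusion with ubiquitin, was lowest, with 15.2 RPKM with BDE-209, 15.3 with DMSO and 14.9 in the control. RPS14 (uS11), a platform protein of the decoding region, stood at 26.4, 30.5 and 27.6 RPKM. RPS24 (eS24), required for 18S rRNA maturation, stood at 51.1, 51.9 and 51.2. All 3 lay well below the rest, of which RPS23 was the next. RPS23 (uS12), a protein of the decoding centre, was at 179, 173 and 175 RPKM. Its reads were not few, with 2784, 2755 and 2818, but were spread over 3325 bases, the longest transcript of the set. RPS21 (eS21) was at 213, 226 and 203 RPKM. The highest gene of the set exceeded the lowest 311-fold with BDE-209, 326-fold with DMSO and 322-fold in the control.

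**Figure D1:**
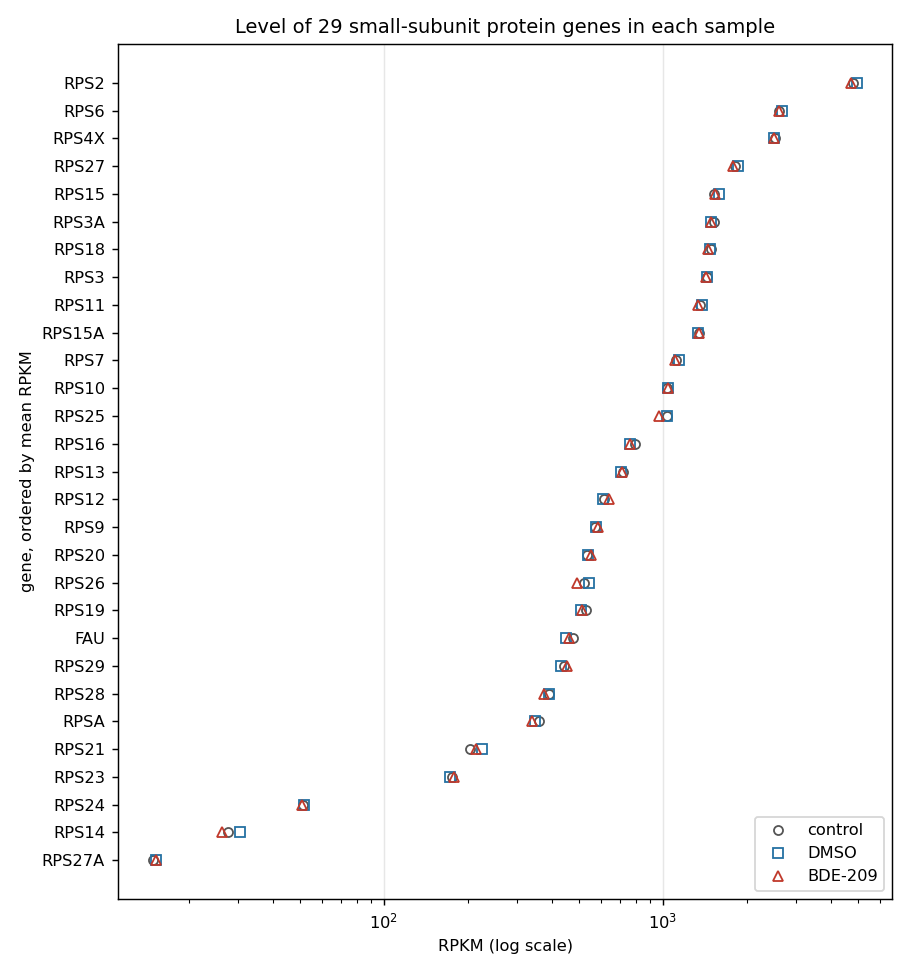
RPKM (log scale, horizontal) of 29 of the 32 genes (vertical, ordered by mean) in the control (circles), DMSO (squares) and BDE-209 (triangles) samples, with 1 value per sample and no error bars. The 3 symbols nearly coincide for most genes while the genes run from about 15 RPKM for RPS27A to 4731 or more for RPS2.

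The order of the genes was the same in nearly every detail across the samples. In all 3 samples 22 of 32 genes held the same rank, and no gene moved by more than 2 places between any pair. Across the 32 genes, which share libraries and lengths, the Pearson correlation of log2 levels was 0.999 for BDE-209 and DMSO, and 1.00 both for DMSO and the control and for BDE-209 and the control. Over the 3 samples, the coefficient of variation of a gene had a median of 2.04%, from 0.465% for RPS3 to 7.55% for RPS14. It was under 5% for 29 genes. The same median was 3.17% over the 795 transcripts with a mean of at least 100 RPKM and 7.49% over those with at least 1. The median over the set was thus below both, without a test. Depth was not matched, since the median level of the set, 737 to 756 RPKM, is far above both cuts and counting error falls with reads. The comparison therefore does not show that the set is steadier than other mRNAs of equal level.

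Position in the subunit did not order the levels strictly. The 14 members placed in the head, the lobe that swivels as tRNAs move, had a median of 698 RPKM over the mean of the samples. The 18 members placed in the body and platform, where the mRNA enters and is decoded, had a median of 917. The lowest gene of the head was RPS27A at 15.1 RPKM and that of the body and platform RPS14 at 28.2, so both groups held very low members. By evolutionary class, the 15 proteins with a counterpart in bacteria had a median of 714 RPKM and the 17 without one a median of 1012. These splits were made after the levels were known and are given without a test.

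The 3 lowest genes shared a feature of the files, the number of RefSeq transcripts listed for the gene. RPS14, RPS24 and RPS27A each had 3 listed transcripts. The other 29 genes had 1 or 2, and their highest transcripts ran from 176 to 4832 RPKM on the mean of the samples. Genes with 2 listed transcripts were not low, since RPS15A, RPS20 and RPS29 reached 1622, 542 and 442 RPKM. The same was seen in the large subunit, where RPL17, RPL28, RPL31 and RPL32 were the only genes with 3 or more listed transcripts and lay at 9.59 to 48.7 RPKM. The other 43 large-subunit genes, 29 with 1 transcript and 14 with 2, lay at 124 to 2676. Over all genes whose highest transcript had a mean of at least 1 RPKM, 5.67% of the 7951 with 1 listed transcript and 5.99% of the 2739 with 2 reached 100 RPKM, against 0.746% of the 804 with 3 or more. None of these 804 reached 300 RPKM. Whether the counting of reads shared by isoforms sets these low levels was not tested, and the methods do not describe it.

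**Figure D2:**
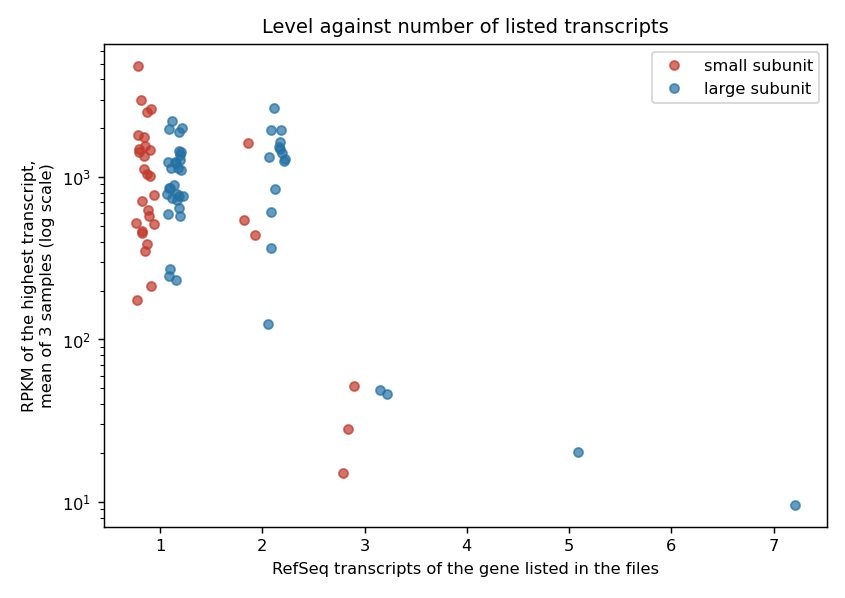
Mean RPKM over the 3 samples (log scale) of the highest listed transcript of each small-subunit (red) and large-subunit (blue) gene against the number of RefSeq transcripts of the gene in the files, with points shifted sideways for legibility. All 7 genes with 3 or more listed transcripts lie under 60 RPKM and all others above 100 RPKM.

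Reads behind the isoforms differed between these genes. In RPS14, NM_005617 had 71 reads with BDE-209, 84 with DMSO and 77 in the control. Its other member transcript, NM_001025070, had 38, 37 and 33 reads, and the remaining listed transcript, NM_001025071, had 51, 44 and 50. With so few reads, the intervals of both member transcripts included 0 in every comparison. In RPS24, NM_001026 had 155, 161 and 161 reads and NM_033022 had 46, 47 and 42, at 14.7, 14.6 and 12.9 RPKM. NM_001142285, which is no member, had 4, 21 and 14 reads. RPS27A had 76, 78 and 77 reads on NM_002954, next to 61, 54 and 76 on NM_001177413 and 0, 3 and 2 on NM_001135592. In contrast, both listed transcripts of RPS15A were read deeply in every sample, with 3503 to 3620 reads on NM_001019 and 3728 to 3816 on NM_001030009. RPS20 was alike, with 2208, 2213 and 2223 reads on NM_001023 and 2105, 2135 and 2127 on NM_001146227. Whether the same reads were counted for both transcripts was not tested.

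Because the study kept uniquely mapped reads, the share of each mRNA with a unique exact match in the genome was computed. Every 49-base window of the GENCODE transcript nearest in length was searched exactly, on both strands, in GRCh37 (the assembly of hg19). A window within 1 exon with 1 match was counted as unique. Windows across exon junctions were not counted as unique, and the 2 mismatches the authors allowed were not modelled. The share is therefore not the share that could give the reads kept by the study. Over the 32 genes, the unique share had a median of 44.8%, and RPS23 was highest with 86.6%. RPS27 (chr1:153963238-153964631, plus strand) had a unique share of 1.6% and RPS2 (chr16:2012059-2014842, minus strand) of 11.3%. Both were nevertheless among the abundant genes of the set. On the other hand, the share was 52.2% in RPS14 (chr5:149822198-149829302, minus strand), 48.4% in RPS24 (chr10:79793518-79816571, plus strand) and 46.5% in RPS27A (chr2:55459039-55462989, plus strand). These shares were near or above the median of the set, although the GENCODE transcript of RPS27A was 272 bases shorter than its recovered length. Spearman's rho between level and unique share was -0.379 across the 32 genes, and rho between level and transcript length was -0.038. Both are descriptions over genes that share libraries. The GENCODE transcript was within 20 bases of the recovered length for 16 genes, and RPS28 differed most, by 929 bases. Levels of genes with near-identical copies are uncertain in this sense, and which reads were counted for RPS2 and RPS27 was not tested.

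**Figure D3:**
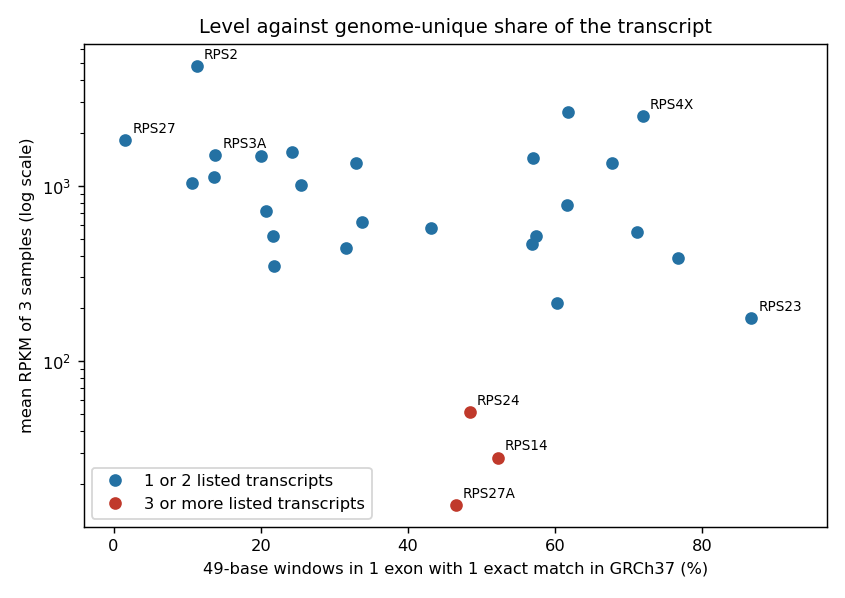
Mean RPKM over the 3 samples (log scale) of 29 of the 32 genes against the percentage of their 49-base windows that lie in 1 exon and have 1 exact match in GRCh37. RPS27, at 1.6%, and RPS2, at 11.3%, are among the most abundant, and RPS14, RPS24 and RPS27A (red, 3 listed transcripts) are lowest at 46.5% to 52.2%.

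BDE-209 was compared with DMSO to ask for the effect of the flame retardant apart from its solvent. None of the 32 genes differed by 1.2-fold or more on the log2(RPKM + 0.5) scale. The median log2 ratio was -0.018, against 0.00036 over the 15573 transcripts with a mean of at least 1 RPKM and -0.015 over the 795 with at least 100. A 1.2-fold difference was reached by 19.3% of the former and 0.629% of the latter. RPS14, RPS24 and RPS27A lay under 100 RPKM and so are not in the latter background, here and in the other comparisons. The 32 ratios ran from -0.21 to 0.08, with 21 below 0 and 11 above. Their SD across genes was 0.06, and the 95% counting interval of a gene had a median half-width of 0.08.

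RPS14 and RPS26 were among the lowest ratios and passed 1.1-fold. For RPS14 the ratio was -0.21 from 71 and 84 reads, with an interval of -0.69 to 0.26. RPS26 (eS26), which contacts mRNA upstream of the start codon, had 492 RPKM with BDE-209, 543 with DMSO and 521 in the control. The difference from DMSO was -0.14 (interval -0.24 to -0.05). In all, 3 of 32 genes were 1.1-fold or more lower and 0 higher, where 4.28% and 1.89% of transcripts above 100 RPKM were (20.6% and 20.5% above 1 RPKM). RPS29 (uS14) had the highest ratio, 0.08 (-0.08 to 0.24), at 454 RPKM with BDE-209, 430 with DMSO and 441 in the control. RPS12 (eS12), a protein of the beak, was next with 644, 612 and 615 RPKM and a ratio of 0.07 (-0.03 to 0.17). RPS23 came next at 0.05 (-0.03 to 0.12).

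Counting intervals that excluded 0 were found for 5 genes, all lower with BDE-209. Besides RPS26, they included RPS2 (-0.07, interval -0.10 to -0.04), RPS25 (-0.09, -0.17 to -0.0053) and RPS6 (-0.04, -0.08 to -0.0017). Against the control, BDE-209 gave -0.02 (-0.05 to 0.0084) for RPS2 and 0.00079 (-0.04 to 0.04) for RPS6, both with intervals that included 0. RPS25 (eS25), a head protein used by viral internal ribosome entry sites, had 972 RPKM with BDE-209, 1032 with DMSO and 1031 in the control. Of the 795 abundant transcripts, 10.2% had such an interval on the lower side and 4.78% on the higher side. Over the 15573 these shares were 3.06% and 2.83%. In the set 5 of 32 were lower, but its median level lies far above both cuts and more reads narrow an interval. Depth was not matched, so these shares do not show that the set differs from other mRNAs of equal level. Reads summed over the set numbered 117957 for BDE-209 against 122958 for DMSO, which after division by the recovered read totals of the libraries gave a log2 ratio of -0.03 (-0.04 to -0.02).

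**Figure D4:**
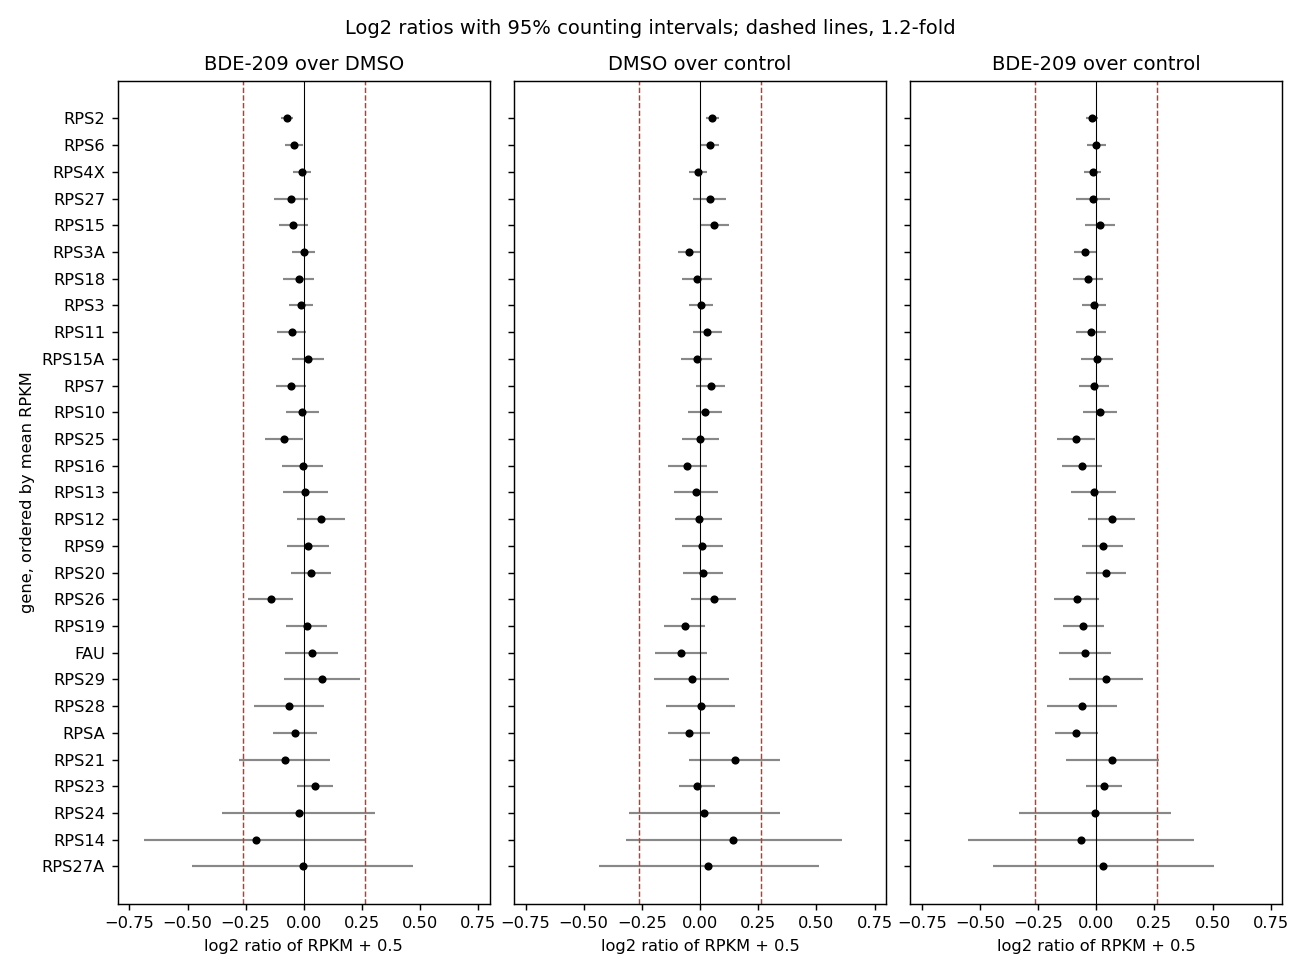
Log2 ratios of RPKM + 0.5 (points) of 29 of the 32 genes, ordered by mean level, in the comparisons BDE-209 over DMSO, DMSO over control and BDE-209 over control, with 95% Clopper-Pearson intervals of the reads (bars, counting error only, without the addition). Dashed red lines mark 1.2-fold, which no point reaches, and the widest bars belong to RPS14, RPS24 and RPS27A.

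DMSO was compared with the control to ask for the effect of the solvent. Again 0 of 32 genes passed 1.2-fold, where 21% of transcripts above 1 RPKM and 1.64% of those above 100 RPKM did. The median log2 ratio was 0.0041, with 19 genes above 0 and 13 below, against 0.0054 and -0.0086 for these backgrounds. RPS21 and RPS14 were the only genes past 1.1-fold, both higher with DMSO, where 4.28% of abundant transcripts and 22.2% of those above 1 RPKM were higher (7.17% and 21.8% lower). RPS21 (eS21), a small body protein that contacts RPSA, had a ratio of 0.15 (-0.05 to 0.35) from 451 and 412 reads. RPS14, itself under 100 RPKM, had 0.14 (-0.32 to 0.61). Neither interval excluded 0. Next was RPS15 (uS19), whose tail reaches the decoding site, with 1541 RPKM with BDE-209, 1590 with DMSO and 1523 in the control and a ratio of 0.06 (-0.0021 to 0.13).

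At the lower end stood FAU (eS30, made as a fusion with a ubiquitin-like protein), with 462 RPKM with BDE-209, 451 with DMSO and 478 in the control. Its ratio of DMSO over control was -0.08 (-0.20 to 0.03). RPS19 (eS19), the gene most often mutated in Diamond-Blackfan anaemia, had 511, 507 and 531 RPKM and a ratio of -0.07 (-0.15 to 0.02). RPS16 (uS9), with a tail near the P-site tRNA, had 761, 764 and 793 RPKM and a ratio of -0.05 (-0.14 to 0.03). The intervals of all 3 genes included 0. Intervals above 0 were found for 3 genes, among them RPS2 (0.05, 0.03 to 0.08) and RPS6 (0.04, 0.0028 to 0.08). The values of RPS2 and RPS6 rest on the same DMSO library as their lower values with BDE-209. For DMSO over control, 0 genes had an interval below 0. The background was such that 11.8% of the abundant transcripts were higher and 11.9% lower, and 4.77% and 3.83% of those above 1 RPKM.

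BDE-209 with DMSO was compared with the control for the effect of both agents. This comparison shares its samples with both others, so its values are no separate evidence. No gene of the 32 passed 1.2-fold (21.3% of transcripts above 1 RPKM and 2.26% of those above 100 RPKM did), and none passed 1.1-fold. Of transcripts above 1 RPKM, 23% were 1.1-fold or more higher and 22.6% lower, and of those above 100 RPKM 3.52% and 9.18%. The median log2 ratio was -0.011, against 0.0036 and -0.027 for these backgrounds. Among the lower ratios, RPSA (uS2), also known as the laminin receptor precursor, had 340 RPKM with BDE-209, 349 with DMSO and 360 in the control, a ratio of -0.09 (-0.18 to 0.0060). RPS25 stood at -0.09 (-0.17 to -0.0041). The highest were RPS21 at 0.07 (-0.13 to 0.27), RPS12 at 0.07 (-0.03 to 0.17) and RPS29 at 0.04 (-0.12 to 0.20). Intervals below 0 were found for 2 of 32 genes, RPS25 among them, and intervals above 0 for 0 genes, where 17.6% of abundant transcripts and 4.33% of those above 1 RPKM were lower and 9.31% and 4.73% higher.

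**Figure D5:**
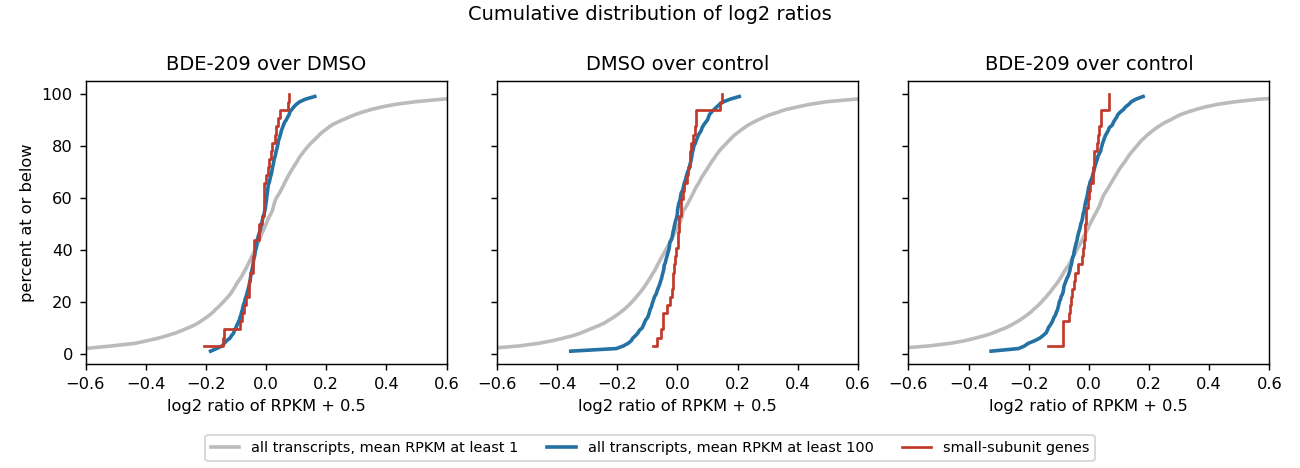
Percentage of features at or below each log2 ratio of RPKM + 0.5, for the 32 small-subunit genes (red steps), the 795 transcripts with a mean of at least 100 RPKM (blue) and the 15573 with at least 1 (grey, lines drawn from the 1st to the 99th percentile) in the 3 comparisons. The red and blue curves are both steep and centred near 0, while the grey curves reach beyond 1.2-fold on either side.

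A 2-fold difference, the size the study used, was reached by 0 of 32 genes in every comparison. Among transcripts above 1 RPKM, 1.1% reached it for BDE-209 over DMSO, 1.03% for DMSO over control and 0.938% for BDE-209 over control. Above 100 RPKM these shares were 0%, 0.377% and 0.377%. The counts of the set take 1 member transcript per gene, and other listed transcripts of these genes enter none of them. For BDE-209 over DMSO, NM_001142285 of RPS24 passed 2-fold, at 0.303 and 1.56 RPKM from 4 and 21 reads. So did NM_001135592 of RPS27A, at 0 and 0.647 RPKM from 0 and 3 reads. For DMSO over control, NM_001177413 of RPS27A passed 1.2-fold, at 12.6 and 17.6 RPKM from 54 and 76 reads. NM_001142285 (21 and 14 reads) and NM_001135592 (3 and 2 reads) also passed 1.2-fold there, higher with DMSO. For BDE-209 over control, NM_001142285 (4 and 14 reads) and NM_001135592 (0 and 2 reads) passed 1.2-fold, lower with BDE-209.

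The scaling of the libraries moved all genes together. When the RPKM values were rescaled from the recovered totals to the uniquely mapped reads given by the study, every transcript shifted by -0.04 for BDE-209 over DMSO and by 0.04 for DMSO over control. The split of the 32 genes then went from 11 above and 21 below 0 to 4 and 28, and from 19 and 13 to 27 and 5. With upper-quartile scaling the latter split was 15 and 17. A scaling adds 1 constant to all ratios of a comparison, so these splits restate the shift and say nothing particular to the set. The median over transcripts above 1 RPKM moved likewise for DMSO over control, from 0.0054 to -0.0010 with upper-quartile scaling. The median over those above 100 RPKM was below 0 for BDE-209 over DMSO under every scaling tried, between -0.015 and -0.05. That of the set was also below 0, between -0.018 and -0.057. The count past 1.2-fold was 0 in each.

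Other genes of ribosome production and initiation were described by 1 transcript per gene, the highest of all those listed. The 47 large-subunit genes had median log2 ratios of -0.028 for BDE-209 over DMSO, -0.0012 for DMSO over control and -0.024 for BDE-209 over control, with 1, 1 and 0 genes past 1.2-fold. The 30 assembly factors of the small subunit, such as the nuclease NOB1 and the kinase RIOK2, had medians of -0.014, -0.02 and -0.08, with 4, 3 and 3 past 1.2-fold. Their typical level was 41.9 to 44.6 RPKM, so their counting error is larger than that of the ribosomal proteins. The 20 initiation factors that bind the small subunit, mostly subunits of eIF3, had medians of -0.00022, 0.04 and 0.0080, with 1, 2 and 1 past 1.2-fold. Of 30 proteins of the mitochondrial small subunit, made from nuclear genes for a separate ribosome, 29 were listed. Their medians were 0.0081, -0.09 and -0.07, with 3, 4 and 3 past 1.2-fold. Whether these lists differ from the small-subunit genes was not tested, as each condition had 1 sample.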

How the data were processed

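PolyA RNA of 3 HEK293 cultures, 1 per condition, gave single-end reads with a length of 49 bases. SOAPaligner was used by the authors on hg19 with up to 2 mismatches, and reads with a unique position were retained. The deposited files give RPKM for each RefSeq transcript, with 6 significant digits and no zeros. Transcripts absent from a file were set to 0. Counting of isoforms and junction reads is not given in the sources used here. Symbols were paired through a RefSeq table (assembly GRCh38.p14) for 24434 of 25443 transcripts.

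Read totals were recovered as the numbers that make low RPKM values whole reads over whole lengths, and reads as the smallest whole numbers fitting all values of a transcript, with a length of at least the coding length for the listed genes. They are intended as lower bounds. On simulated data, all reads were recovered for 91.91% of 5911 transcripts, and 0% had a read number above the true one. The simulated transcripts were mostly longer and at lower levels than the set, and the coding-length condition was not applied to them. Recovery of the reads of the set was therefore not checked. Ratios are log2(RPKM + 0.5), which understates changes of low transcripts. The background holds 15573 transcripts with a mean of at least 1 RPKM. No test between conditions was made. Intervals are 95% Clopper-Pearson, for counting error only, since reads are not independent molecules. Python 3.11.15, numpy 2.4.6, pandas 2.3.3, scipy 1.17.1 and numba 0.67.0 were used, with GRCh37 and GENCODE 44 lifted to it for the windows. Members and lists were chosen with earlier results of these data known. Named genes were the 5 highest and 5 lowest by level, the genes with 2 member isoforms, the 3 ratios at each end of a comparison and any gene past 1.2-fold. Genes with intervals off 0 were named after their values were seen. A few genes that these rules name are not reported here, though counts and medians over the set include them. Alternatives covered the pseudocount, scaling, member isoforms, the fold and the filter on low values of the background.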

Additional observations from a re-analysis of the deposited data

How the results depend on the processing

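No paired analysis was possible because each condition had 1 sample, and no sample could be left out. The count of genes past 1.2-fold was 0 in each comparison under every pseudocount, scaling and handling of member isoforms tried, and at 2-fold. The filters on low values were applied to the background only, so the values of the set could not move under them. At 1.1-fold it was 3 for BDE-209 over DMSO, 2 for DMSO over control and 0 for BDE-209 over control. Rescaling to the uniquely mapped reads of the study moved the median log2 ratio to -0.057 for BDE-209 over DMSO and to 0.046 for DMSO over control, by its construction a shift of all transcripts. Upper-quartile scaling moved the median for BDE-209 over control to -0.024, and that for DMSO over control to -0.0025, below 0. With protein-coding transcripts only as the denominator, the set held 6.96% of summed RPKM with BDE-209, 7.01% with solvent alone and 6.94% untreated. Of 66 values recomputed, 58 stayed at the same count or within the counting error of reads summed over the set. That error is not the error of a median over genes. The 58 include the values under the filters and the counts at 2-fold, which were bound to stay. Depth limits RPS14, RPS24 and RPS27A most, with half-widths of up to 0.49 on the log2 scale.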
